A study of Mus musculus with 12 samples.

Results

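The 10 genes described here, Pou5f1, Nanog, Zfp42, Esrrb, Dppa5a, Tdgf1, Utf1, Dppa4, Sox2 and Klf4, are markers or regulators of mouse embryonic stem cells. They are followed in kidney organoids that were built in part from such cells, with embryonic kidney as the comparison. They were chosen by name, from what is known of stem cells, but earlier results of these data were known at the time. The choice therefore cannot be taken as blind to the values of these genes. All 10 were on the array, out of 27286 gene symbols. The array carried 17 probes for them. Of the genes, 6 had a single probe and 4 had several, in which case the probe that was brightest on average stood for the gene and the 7 other probes were kept for comparison.

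A stem cell of the early embryo stays pluripotent, able to form every tissue of the body, through a network of transcription factors. Pou5f1 (Oct4) and Sox2 bind DNA together and sustain one another and Nanog, while Esrrb and Klf4 support the network in its naive, earliest form. When such cells are turned into kidney progenitors the network shuts down, so RNA of these genes is commonly read as a sign of cells that did not differentiate. Several of the genes also have a life outside stem cells: Sox2 in neural progenitors, Klf4 in epithelia and vessels.

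RNA was measured on 12 one-colour Agilent arrays. The kidney arrays came from wild-type ICR mice, an outbred strain. Whole kidney, freed of its ureter, was taken on the day of birth (P0) and at 4 embryonic stages, named by days after conception (E11.5 and E13.5, then E15.5 and E17.5), with 1 array each. Another array held E11.5 kidney cultured for 7 days. The organoids joined nephron progenitors and ureteric bud, both differentiated from embryonic stem cells of mixed B6 and 129SV background, with stromal progenitors taken from E11.5 ICR kidney. They were measured in triplicate just after assembly (day 0) and again in triplicate when 7 days of culture had passed (day 7), so n = 3 for both. Part of every organoid was therefore kidney tissue that never passed through a stem cell line, and no array of the stem cells themselves was analysed here. Kidney groups have no replicates, and the labels do not say whether the organoid replicates were separate cultures, so p-values measure only the spread between these arrays. In bulk RNA, fewer cells of a type and less RNA per cell cannot be told apart.

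Levels are log2 of the processed signal minus the 75th percentile of the same array, so 0 is the level of a fairly bright probe. A gene is called detected where the scanner software marked its probe as well above background. Between 50.6% and 63.2% of probes were detected on each array. The lowest detected probe stood at -4.65 to -4.22 on the 3 day 0 arrays, whose signal was dimmer, and at -5.55 to -5.00 on the other 9. The kidney identity markers Pax2, Pax8 and Sall1 were detected on all 12 arrays. The kidney arrays shared 1 slide with day 0 replicates 1 and 2, and day 0 replicate 3 shared another with the day 7 arrays. The 15889 probes detected on no array give the drift of undetected signal on this scale. Their median lay 0.71 higher on the day 0 arrays than on the E11.5 array, and between day 0 and day 7 it fell by 0.62.

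Of the core trio, Pou5f1 and Sox2 were not detected on any day 0 organoid array. Pou5f1, a POU-domain factor, was detected on 1 of 12 arrays, that of E17.5 kidney, at -4.99. Its level was -3.97, -5.15 and -4.83 on the day 0 arrays and -5.58, -5.13 and -6.29 on the day 7 arrays. On the fresh kidney arrays it was -4.93, -6.22, -5.30, -4.99 and -5.36 from E11.5 to P0, and in cultured E11.5 kidney it was -5.48. The organoid and kidney values overlapped. Under the laxer flag of the same software, which asks only for a signal significantly above the local background, Pou5f1 was marked positive on 12 of 12 arrays, those of kidney and of organoids alike. Sox2, an HMG-box factor, was detected on 1 array, day 7 replicate 2, at -3.89. The other day 7 arrays read -5.76 and -7.19, the day 0 arrays -5.34, -6.67 and -6.77, and the kidney arrays -7.74 to -6.33. The detected value was seen in 1 replicate of 3, so day 7 organoids as a group were not tested for Sox2.

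Zfp42 (Rex1), a zinc finger protein widely used as a marker of the naive state, was detected in kidney and in no organoid. It stood at -5.24 and -4.96 at E11.5 and E13.5, where it was not detected, and at -3.98, -4.09 and -4.83 at E15.5, E17.5 and P0, where it was. In cultured E11.5 kidney it was -6.89. The day 0 organoids read -6.11, -4.70 and -6.68 and the day 7 organoids -7.23, -7.12 and -6.61, all undetected. The 3 kidney arrays that detected Zfp42 overlapped with the day 0 organoids through replicate 2 alone, and lay above every day 7 value. The slope of Zfp42 over the 5 fresh stages, 0.17 ± 0.15 per stage, was not past the threshold (limma, adjusted p = 0.42). Under the laxer flag Zfp42 was positive on 5 kidney arrays, 2 day 0 arrays and 1 day 7 array.

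**Figure D1:**
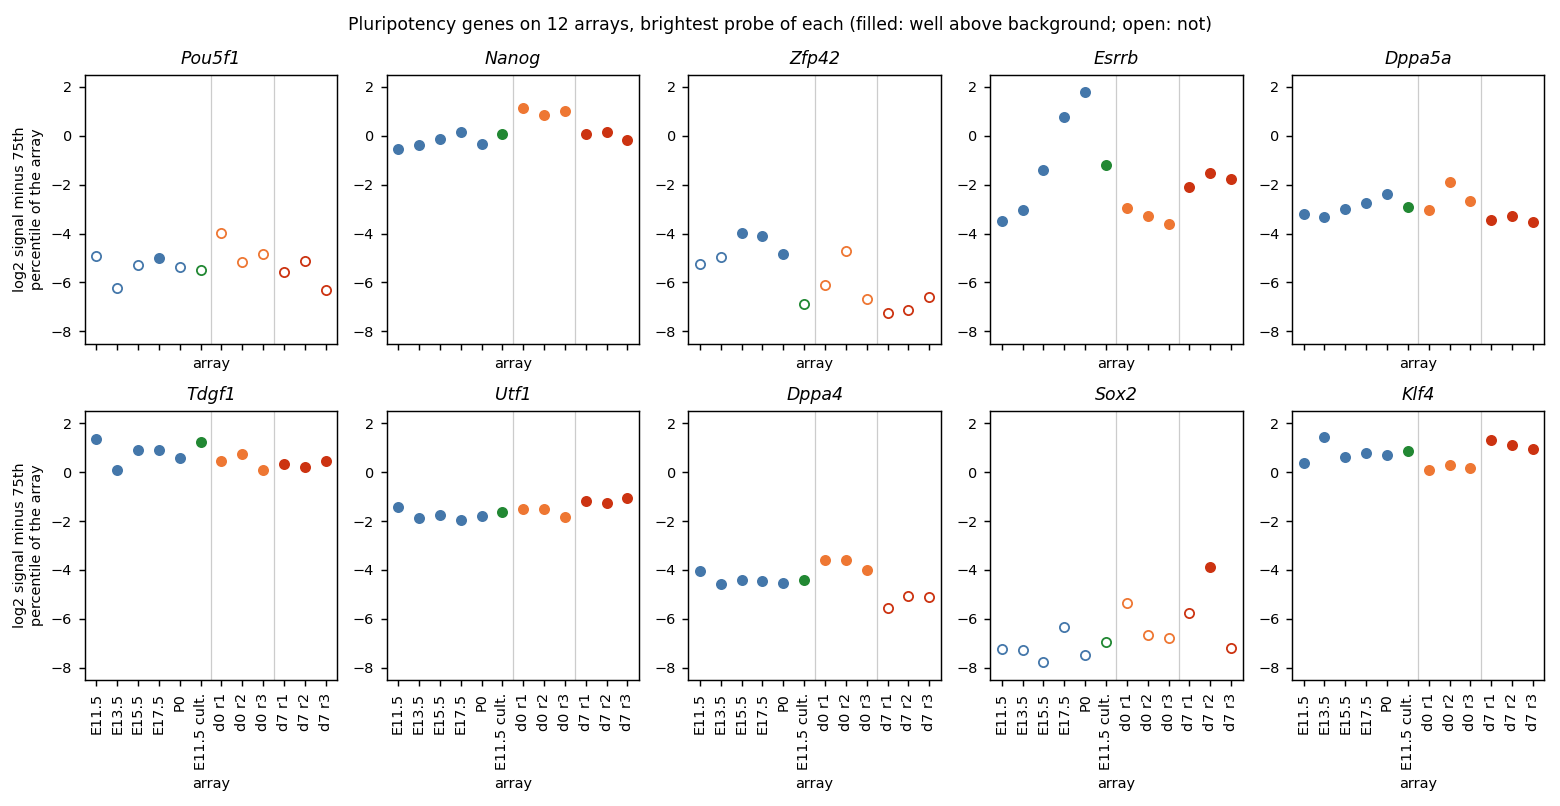
Level of the brightest probe of each gene (y axis, log2 of the signal minus the 75th percentile of the array) on each of the 12 arrays (x axis): blue, fresh kidney by stage; green, E11.5 kidney after 7 days in culture; orange, day 0 organoids (d0, replicates r1 to r3); red, day 7 organoids (d7). Filled points were well above background; Pou5f1 and Sox2 are filled on 1 array each and Zfp42 on 3, and Esrrb has the widest range, from -3.63 to 1.79.

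The remaining 7 genes were detected in organoids, but in kidney as well: Nanog, Esrrb, Dppa5a, Tdgf1, Utf1 and Klf4 on 12 of 12 arrays, and Dppa4 on the 6 kidney and 3 day 0 arrays. Detection alone therefore did not separate organoids from kidney. For Nanog, Tdgf1, Esrrb and Dppa4 the detected signal came almost wholly from 1 probe. Of the 84 values that their 7 other probes gave over the 12 arrays, 6 were well above background, and none of the 6 was in an organoid. These were Nanog's second probe in E11.5, E13.5, E15.5 and P0 kidney, the second probe of Esrrb in E17.5 kidney, and the second probe of Tdgf1 in cultured E11.5 kidney.

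The probes are 60 bases long, and what part of their sequence occurs elsewhere bears on what they read. Each was searched for 16-base stretches shared with RefSeq promoter windows (GRCm38.p6, 250 bases before to 50 after a start, 27025 genes, either strand). A stretch of 30 bases is shown 5′ to 3′ for the probes of Nanog and Tdgf1, whose signals turn on 1 probe each, and for the first probe of Esrrb. Capitals mark the 16 bases found in the windows of most genes, or the first 16 of the probe where no window holds any. The positions that follow are those the array design gives, in build mm9. They are a different build from the promoter windows, and their place in exons or untranslated regions was not analysed here.
Nanog probe 1: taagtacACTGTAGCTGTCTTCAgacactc
Nanog probe 2: CCATGATGAACCGATGccagctggactagt
Nanog probe 3: ACCCCACAAGCCTTGGaattattcctgaac
Tdgf1 probe 1: gggagaaAAAAGAGAGAGAGAGAagaaaaa
Tdgf1 probe 2: tacccctCAAAACACTAACTAGGccttagc
Tdgf1 probe 3: attattaAATCCCAGTGTGCAACtggaagt
Esrrb probe 1: catgtatctGAAATCTAATAAATAAggaaa

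Nanog's first probe (chr6:122663676-122663735, plus strand) shared 16 bases or more with the promoter windows of 76 genes. Only 0.410% of all 55681 probes shared with as many, whereas 70.8% shared with none. The bases in capitals belong to a common short interspersed repeat of the mouse genome, the B2 element, read from its opposite strand. One probe on the array shared 16 bases or more with it on the same strand, that of the zinc finger gene Zfp872, and 13 did on the opposite strand. Nanog's second probe (chr6:122664590-122664649) shared with no gene and the remaining one (chr6:122663514-122663573) with 1. The first probe of Tdgf1 (chr9:110842722-110842781, minus strand) holds a run of GA and shared with 27 genes, as many as 0.851% of all probes did. Its other probes shared with 1 gene each. The remaining probes of the 10 genes shared with 0 or 1.

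Nanog, the homeodomain factor of the core network, was the 1 gene of the 10 that was past the threshold as higher in organoids than in kidney, and this rested on its first probe. With normexp background correction Esrrb (0.44), Dppa5a (0.61) and Dppa4 (0.50) were past it as well on day 0 (limma, adjusted p = 0.0099, 0.0029 and 0.0011), where 8013 of 19572 genes were then called higher against 3059 without it. On Nanog's first probe day 0 organoids read 1.15, 0.87 and 1.01, against -0.53, -0.38, -0.13, 0.14 and -0.36 in kidney from E11.5 to P0 and 0.08 in cultured E11.5 kidney. Day 7 organoids read 0.06, 0.17 and -0.17. All 3 day 0 arrays lay above every other array, and of the day 7 arrays replicates 1 and 3 lay within the kidney range and replicate 2 just above it. Day 0 organoids were 1.54 ± 0.17 (SE) above E11.5 kidney, or 2.90-fold (limma, Benjamini-Hochberg adjusted p = 0.0029). The test is a fit of 8 arrays in which each lone kidney array is assumed to vary like the organoid replicates.

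Nanog's second probe, the one without the repeat, gave no detected signal in organoids. It read -4.87, -4.82, -5.39, -5.67 and -4.89 in kidney from E11.5 to P0, and was detected on all of these but E17.5. In cultured E11.5 kidney it was -5.81, in day 0 organoids -6.43, -5.87 and -6.08, and in day 7 organoids -5.82, -5.65 and -5.91, all undetected. The lowest detected signal of the day 0 arrays, -4.65 to -4.22, lay above the E11.5 value of this probe, so whether day 0 organoids held less than E11.5 kidney cannot be read from it. Nanog probe 3 was detected on no array. With the mean of the 3 probes as the level of Nanog, the difference was 0.59 and no longer past the threshold (limma, adjusted p = 0.13).

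**Figure D2:**
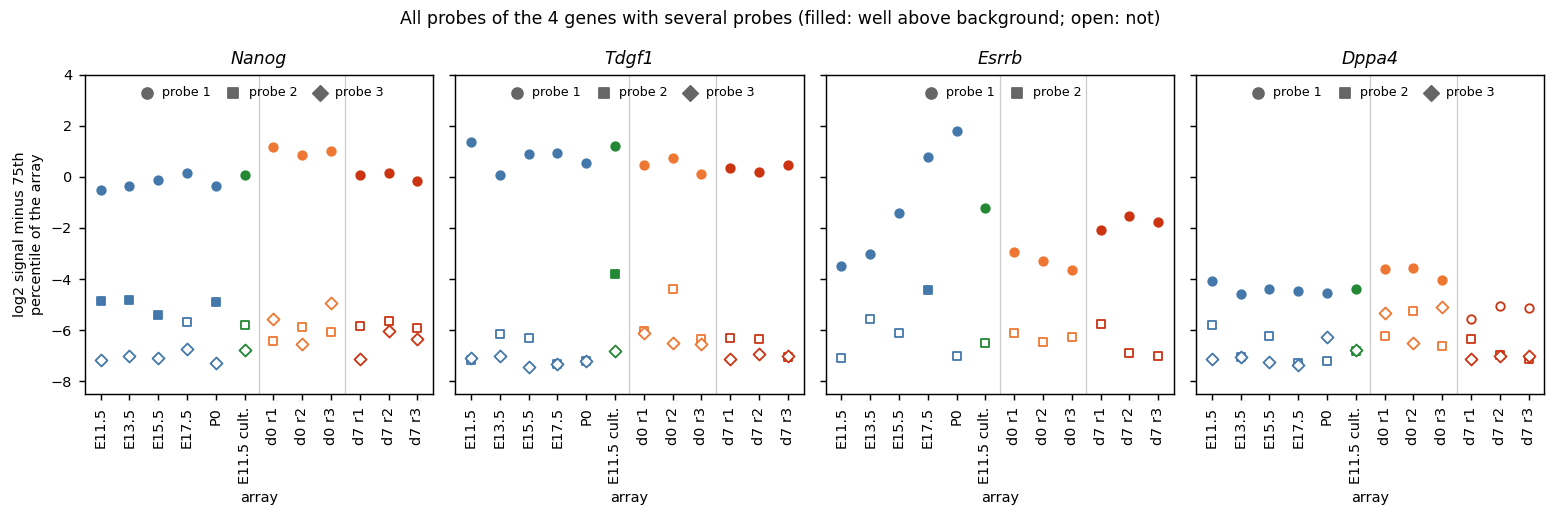
Level of every probe of Nanog, Tdgf1, Esrrb and Dppa4 (y axis, log2 of the signal minus the 75th percentile of the array) on each array (x axis, colours as for kidney, cultured kidney, day 0 and day 7 organoids in the plot of all 10 genes). Filled points were well above background; circles are the brightest probe, and no square or diamond is filled in an organoid, while Nanog's second probe is filled on 4 kidney arrays.

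The Zfp872 probe, the same-strand partner of Nanog's first probe, read -2.53, -2.82 and -3.44 in day 0 organoids, -4.55, -3.90 and -4.46 in day 7 organoids and -4.41 to -3.38 on the kidney arrays. It was 1.48 ± 0.40 higher in day 0 organoids than in E11.5 kidney (limma, adjusted p = 0.038) and fell by 1.37 ± 0.27 from day 0 to day 7 (limma, adjusted p = 0.0042), where the Nanog probe fell by 0.99 ± 0.12 (adjusted p = 0.00048). The 2 probes parted elsewhere: Zfp872 rose over the fresh kidney stages (0.27 ± 0.06 per stage, adjusted p = 0.038), where Nanog did not pass (0.09 ± 0.08, adjusted p = 0.43), and in day 7 organoids against cultured kidney it differed by -0.83 ± 0.40 (adjusted p = 0.25) against -0.06 ± 0.17 for Nanog (adjusted p = 0.85). The 13 opposite-strand partners changed by -0.35 to -0.03 over the same 7 days. Zfp872 was singled out after its values were seen. What part the shared bases have in the signal of Nanog's first probe was not tested.

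**Figure D3:**
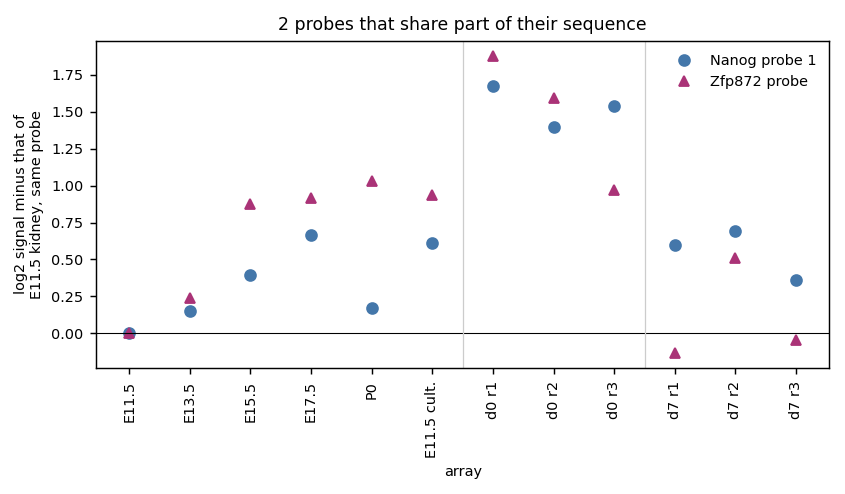
Signal of Nanog's first probe (blue circles) and of the Zfp872 probe (purple triangles), which share 16 bases or more, on each of the 12 arrays (x axis), each as log2 minus its own value in E11.5 kidney (y axis). Nanog's probe is highest in the 3 day 0 organoids (d0), and that of Zfp872 in day 0 replicates 1 and 2, with replicate 3 (-3.44 before the subtraction) just below P0 kidney (-3.38); both are lower in the day 7 organoids (d7).

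Tdgf1 (Cripto), the cell-surface co-receptor through which Nodal signals, had the opposite sign to Nanog. Its first probe read 1.36, 0.07, 0.90, 0.92 and 0.56 in kidney from E11.5 to P0 and 1.22 in cultured E11.5 kidney. Day 0 organoids read 0.46, 0.72 and 0.10, and day 7 organoids 0.33, 0.19 and 0.47. The organoids lay within the range of fresh kidney but below both E11.5 arrays. Tdgf1 was lower in day 0 organoids than in E11.5 kidney (-0.93 ± 0.25, limma, adjusted p = 0.036). The call was lost without day 0 replicate 1 (adjusted p = 0.071), without any 1 of the day 7 replicates (0.055 to 0.067) and on slide 1 alone (-0.77, adjusted p = 0.12). With the mean of its 3 probes the sign turned, to 0.44 (adjusted p = 0.34). Tdgf1 probes 2 and 3 were undetected in E11.5 kidney and in every organoid. On day 0 they read 1.56 and 0.69 above E11.5 kidney, where undetected probes of the array had a median of 0.71. The mean thus takes in background signal and cannot tell the sign of Tdgf1. In day 7 organoids Tdgf1 was -0.89 ± 0.25 relative to cultured kidney (adjusted p = 0.092, but 0.017 with normexp, 0.029 with trend and robust moderation and 0.048 with detection required on every array). Its second probe was detected on 1 array, cultured E11.5 kidney, at -3.81, against -7.16 in fresh E11.5 kidney. The first probe of Tdgf1 shared 16 bases or more with 7 other probes, 4 of them on the same strand. Of these 4, AK146780 (-1.53), Klra1 (-0.56) and Ddx25 (-0.54) read lower in day 0 organoids than in E11.5 kidney. Tmem234 read higher (0.26), as did the 3 opposite-strand probes (0.54 to 0.66). What part the shared bases have in the signal of Tdgf1 was not tested.

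Esrrb, an orphan nuclear receptor of the naive network, had a kidney course of its own. It rose at every step from -3.48 at E11.5 through -3.02, -1.40 and 0.77 to 1.79 at P0, and stood at -1.21 in cultured E11.5 kidney. The slope over the 5 fresh stages was 1.43 ± 0.13 per stage (limma, adjusted p = 0.0089; without P0 1.44, adjusted p = 0.062). From E11.5 to P0 this was 38.7-fold on the first probe, with no replicates. The second probe was not detected at either stage and read -7.07 and -7.02. With the mean of both probes the slope was 0.78 (limma, adjusted p = 0.036). Among the 9 of the 10 genes that were tested for a stage trend, Esrrb alone passed, where 24.6% of all genes did (11.4% higher and 13.2% lower). Dppa5a had a slope of 0.22 ± 0.06 (adjusted p = 0.050) and was not past the threshold, except with quantile normalization, detection required on every array or E11.5 left out (adjusted p = 0.029 to 0.037).

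Organoids began at the low end of this course and rose along it. Esrrb read -2.96, -3.30 and -3.63 on day 0, next to E11.5 kidney at -3.48, and -2.09, -1.53 and -1.75 on day 7, between E13.5 and cultured E11.5 kidney, whose values were -3.02 and -1.21. The organoid groups did not overlap, and Esrrb rose by 1.51 ± 0.21, or 2.84-fold (limma, adjusted p = 0.00084). With normexp background correction the rise was 0.26 and with the mean of both probes 0.62, both past the threshold. Cultured E11.5 kidney was 4.84-fold above fresh E11.5 kidney, with 1 array each, a log2 difference of 2.28 that was 1.04 with normexp and 1.43 with the mean of both probes. The change in organoids and that in kidney differed by -0.77 ± 0.43 (limma, adjusted p = 0.27), which passed with normexp (-0.78, adjusted p = 0.0068).

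The 3 genes whose levels followed that of Esrrb most closely over the 12 arrays were 2610528J11Rik (Pearson r = 0.98), Aqp2 (0.98), the water channel of the collecting duct, and Slc37a4 (0.98), the glucose-6-phosphate transporter. The arrays share stage and culture, so these are descriptions. The summed linear signal of 7 markers of distal tubule and collecting duct was 2.62 to 82.6 times the 75th percentile on kidney arrays, 3.36 to 3.96 on day 0 and 3.52 to 4.10 on day 7 arrays, with 4 to 7, 4 and 5 of the 7 detected. Taken singly, 3 of the 5 tested between organoid days rose and 2 fell, with a median of 2.04. Of all genes 27.5% rose and 41.1% fell, with a median of -0.17. The part of these markers in the level of Esrrb was not tested. The relative Esrrg rose with stage too, by 1.13 ± 0.20 per stage (limma, adjusted p = 0.023). The first Esrrb probe (chr12:87862509-87862568, plus strand) shared 16 bases or more with 1 probe, that of the ubiquitin ligase gene Rnf152. Rnf152 rose with stage as well (0.88 ± 0.07 per stage, adjusted p = 0.0082) and from day 0 to day 7 (0.85 ± 0.18, adjusted p = 0.0052), and the part of the shared bases was not tested. Esrrb's second probe was detected in E17.5 kidney alone, at -4.42.

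Klf4, a zinc finger factor of stem cells and of barrier epithelia and vessels, rose in organoids during culture. It read 0.08, 0.29 and 0.17 on day 0 and 1.30, 1.10 and 0.93 on day 7. Kidney stood at 0.39, 1.43, 0.61, 0.78 and 0.69 from E11.5 to P0, and at 0.87 after culture of E11.5 kidney. Day 0 organoids were thus below all 6 kidney arrays and day 7 organoids above 5 of the 6. The rise was 0.93 ± 0.12, or 1.91-fold (limma, adjusted p = 0.00055). Neither organoid group was past the threshold against its kidney counterpart, with -0.21 ± 0.17 on day 0 (adjusted p = 0.39) and 0.24 ± 0.17 on day 7 (adjusted p = 0.40).

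Other values moved with Klf4. Of 14 immediate early genes, which respond fast to growth factors and stress, 14 rose from day 0 to day 7, with a median of 1.23 where the median of all genes was -0.17 and 27.5% of genes rose. Ier3 (4.25 ± 0.21) and Nr4a1 (2.71 ± 0.15) were among them. The summed signal of 5 endothelial markers was 0.786 to 0.958 on day 0, 5.80 to 11.3 on day 7 and 9.57 to 19.8 in kidney. That of 8 markers of surface epithelium and urothelium was 8.01 to 9.77, 12.7 to 45.1 and 8.61 to 23.0. Their part in the rise of Klf4 was not tested. Klf2, a close relative of Klf4, rose by 2.60 ± 0.15 (limma, adjusted p = 1.9e-05). It is itself among the 5 endothelial markers, so its rise is part of their summed signal and not a separate observation. The genes most like Klf4 over the 12 arrays were Stt3a, Hspa9 and Sapcd1 (r = 0.92 each).

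Dppa4, a nuclear protein of early embryos with a DNA-binding SAP domain, dropped out of detection in organoids during culture. Its first probe read -3.59, -3.57 and -4.02 on day 0, all detected, and -5.57, -5.06 and -5.12 on day 7, none detected. Kidney stood between, at -4.06, -4.59, -4.40, -4.46 and -4.55 from E11.5 to P0 and -4.40 after culture, with detection on all 6 arrays. The groups did not overlap. Dppa4 fell by 1.52 ± 0.18 (limma, adjusted p = 0.00045), which is at least 2.54-fold lower when the day 7 arrays are given their lowest detected signal where it exceeds the measured one. Dppa4 entered this test through the day 0 arrays alone, where it was detected. In a fit of all probes without a detection filter its adjusted p was 0.0025 (limma). The undetected probes of the array fell by a median of 0.62 over the same comparison, and with normexp background correction Dppa4 fell by 0.57. Against cultured E11.5 kidney, day 7 organoids differed by -0.85 ± 0.27, which was not past the threshold (adjusted p = 0.12) and was -0.09 with normexp (adjusted p = 0.48). Its other 2 probes were detected on no array.

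Dppa5a, an RNA-binding protein of the early embryo, and Utf1, a chromatin factor of stem cells, changed less. Dppa5a read -3.02, -1.91 and -2.68 on day 0 and -3.45, -3.28 and -3.52 on day 7, against -3.33 to -2.39 on the kidney arrays. It fell by 0.88 ± 0.27 (limma, adjusted p = 0.026). The fall was 0.56 without day 0 replicate 2. It was not past the threshold without day 7 replicate 1 or 3 (adjusted p = 0.069 and 0.074) or with slide as a block (-0.74, adjusted p = 0.17). Utf1 read -1.52, -1.51 and -1.84 on day 0 and -1.20, -1.27 and -1.07 on day 7, against -1.96 to -1.44 in kidney, so that the day 7 arrays lay above all others. It rose by 0.44 ± 0.12, or 1.36-fold (limma, adjusted p = 0.015). The rise was not past the threshold with normexp (0.10, adjusted p = 0.19) or without day 7 replicate 3 (0.39, adjusted p = 0.054). Each gene had 1 probe, and that of Dppa5a shared 16 bases or more with 5 other probes.

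Over the 7 days of organoid culture, 3 of the 10 genes rose (Esrrb, Klf4, Utf1), 3 fell (Nanog, Dppa4, Dppa5a), Tdgf1 was not past the threshold (-0.10 ± 0.17, adjusted p = 0.62), and 3 were not tested because neither day's arrays all detected them. Of all 17988 genes tested, 68.7% were called (27.5% higher and 41.1% lower), so a count of 6 of 7 is near the background. Against E11.5 kidney on day 0, Nanog was higher, Tdgf1 lower and 5 were not past the threshold, where 29.5% of genes were called (15.6% higher and 13.9% lower). Against cultured E11.5 kidney on day 7, 0 of 7 passed after adjustment (limma; 3 had an unadjusted p under 0.05, Tdgf1, Dppa4 and Utf1), where 6.16% of genes were called (3.47% higher and 2.69% lower). Over both times together, Nanog was 0.74 ± 0.12 higher (adjusted p = 0.011) and Tdgf1 differed by -0.91 ± 0.17 (adjusted p = 0.016), where 27.1% of genes were called (14.6% higher and 12.5% lower). Both calls were lost with slide as a block (adjusted p = 0.091 and 0.11) and with the mean of all probes. That mean takes in other probes of both genes, none of them detected in an organoid. These comparisons share arrays and are not independent of each other.

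**Figure D4:**
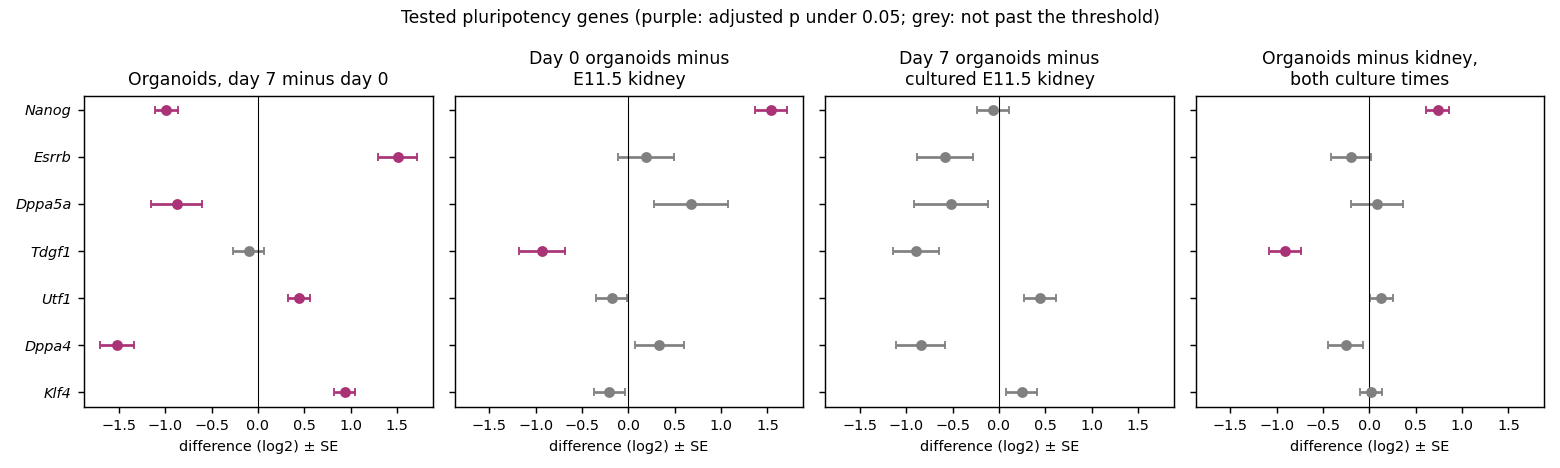
Difference (x axis, log2, with SE of the fitted model as bars) for the 7 tested genes (rows) in each of 4 comparisons (panels); purple points had a limma adjusted p under 0.05 and grey points did not. Purple points number 6 for organoids between day 0 and day 7, 2 for day 0 organoids against E11.5 kidney (Nanog 1.54, Tdgf1 -0.93), 0 for day 7 organoids against cultured kidney and 2 over both culture times.

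The change of Nanog over 7 days also differed between organoids and kidney. Its first probe was 0.61 higher in cultured than in fresh E11.5 kidney, with 1 array each, while in organoids it fell by 0.99. The difference of the changes was -1.60 ± 0.25 (limma, adjusted p = 0.014), the only one of 7 past the threshold where 14.4% of genes were called (7.9% higher and 6.48% lower). All tested genes had a median of -0.04 in the same contrast. The undetected probes of the array, unlike Nanog's first probe, lie near background, and their median was -0.90. With the mean of the 3 Nanog probes the difference was -0.52 (adjusted p = 0.37).

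The wider network was read from a list of 29 other genes of naive pluripotency, of which 7 were detected on no array, among them the growth factor gene Fgf4, Dppa2, Dppa3, Eras, Prdm14 and Tex19.1. In all, 8 of the 29 (27.6%) were detected in no organoid and 17 (58.6%) in every organoid, against 27.4% and 58.5% of all genes. Between day 0 and day 7, 9 rose, 8 fell and 3 were not past the threshold of 20 tested, with a median of 0.02 beside -0.17 for all genes. Of all genes, 27.5% rose and 41.1% fell. Sp5, a Wnt target, rose by 2.92 ± 0.39 (limma, adjusted p = 0.00071), and Fbxo15 fell by 2.04 ± 0.24 (adjusted p = 0.00041). Day 0 organoids had more Stat3, the effector of LIF signalling, than E11.5 kidney (2.29 ± 0.16, adjusted p = 0.00096). They had less RNA of 5 others, among them L1td1 (-2.32 ± 0.21, adjusted p = 0.0017), and 15 of 21 tested were not past the threshold. Here 15.6% of all genes were higher and 13.9% lower. In day 7 organoids 0 were higher than in cultured kidney and 1 was lower, Nr0b1 (at least 2.78-fold), with 20 not past the threshold. In that comparison 3.47% of all genes were higher and 2.69% lower. Over both culture times together 1 of 21 tested was higher in organoids than in kidney, 9 were lower and 11 were not past the threshold. The median was -0.42, beside 0.01 for all genes, of which 14.6% were higher and 12.5% lower.

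Genes of the primed state and the primitive streak, through which differentiating stem cells pass, included some that were higher and some that were lower in organoids than in kidney. Of 20 such genes 5 were detected on no array (T, Mixl1, Cer1, Wnt3 and Wnt3a) and 7 (35.0%) in no organoid, against 27.4% of all genes. Foxa2, a factor of endoderm and axial mesoderm, was detected on all 6 organoid arrays and 2 of 6 kidney arrays. Neither fresh nor cultured E11.5 kidney detected it, so it entered both tests through the organoids alone. It was at least 4.22-fold higher in day 0 organoids than in E11.5 kidney (limma, adjusted p = 0.0031) and at least 5.33-fold higher in day 7 organoids than in cultured kidney (adjusted p = 0.037). Evx1 was at least 14.7-fold higher (adjusted p = 0.011) and Gsc at least 1.68-fold (adjusted p = 0.0056) in the latter comparison. Both were detected on 1 kidney array, that of fresh E11.5 kidney, where Evx1 read -1.66 beside means of -1.50 in day 0 and -1.24 in day 7 organoids, and Gsc -3.66 beside -2.83 and -4.38. Lin28b, an RNA-binding protein of immature cells, was detected on day 0 and in kidney and on no day 7 array, and was at least 4.43-fold lower there than in cultured kidney (adjusted p = 0.040). By count, 3 of 14 tested were higher, 2 lower and 9 not past the threshold in day 7 organoids against cultured kidney, where 3.47% of all genes were higher and 2.69% lower. Day 0 organoids against E11.5 kidney had 2 of 14 higher and 5 lower, with a median of -0.73. There 15.6% of all genes were higher and 13.9% lower, with a median of 0.04. Over both times 3 were higher and 6 lower, with a median of -0.58, where 14.6% and 12.5% of all genes were.

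Germ cells are the other cells that hold much of this network. Of 16 germ cell genes Dazl, Tdrd1 and Rhox6 were detected on no array. In no organoid 5 (31.25%) were detected and in every organoid 5 (31.25%), against 27.4% and 58.5% of all genes. Mael, a piRNA pathway gene, was detected on the 3 day 7 arrays alone and was at least 3.84-fold higher there than in cultured kidney (limma, adjusted p = 0.037). It entered that test through the day 7 arrays alone. Of 11 germ cell genes tested, Mael was the only 1 higher, 1 was lower and 9 were not past the threshold. Of all genes, 3.47% were higher and 2.69% lower. Beside Sox2, 24 genes of neural progenitors, glia and neurons were read, and of 18 tested 5 rose and 12 fell from day 0 to day 7, with a median of -1.03, where 27.5% of all genes rose, 41.1% fell and the median was -0.17. Among 32 relatives of the transcription factors in the list, 14 of 27 tested rose over the same days, 7 fell and 6 were not past the threshold, beside the same shares of all genes. The endothelial factor Sox17 rose at least 11.6-fold, and Sox7 and Sox18 rose from detection on 1 of 3 day 0 arrays to detection on all 3 day 7 arrays (limma, adjusted p = 0.0015 and 0.00021). These Sox genes entered the test through the day 7 arrays alone.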

How the data were processed

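Per the file headers, the authors deposited the background-subtracted processed intensity of each spot from Feature Extraction 11.5.1.1 under protocol GE1_1105_Oct12. The submitters' processing notes name version 10.7.3.1. They also deposited a table of log2 values that equals log2 of that intensity minus 1 constant per array. The log2 intensity was taken, spots flagged as outliers (108 to 206 per array) were left out, spots of a probe were averaged and each array's 75th percentile was subtracted. A gene was represented by its probe with the highest mean.

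A gene was tested where some group had it well above background throughout, or, for the stage trend, where 1 array did. Genes undetected in a compared group thus entered through a group that detected them, and their calls are not independent of that rule. The test was made with limma 3.58.1 under R 4.3.3 (two-sided, Benjamini-Hochberg over all genes tested, threshold 0.05). Organoid groups were fitted on 6 arrays, comparisons with kidney on 8 in 4 groups, and the trend on 5. "At least" folds set an undetected group at the higher of its own signal and the lowest detected signal of each array. Genes named in lists are up to 4 with the largest called change, some of which are not reported here. Likeness is Pearson r over 12 arrays. The fits were tested on simulated data, in which 84% of 2-fold and 99% of 4-fold changes were recovered between organoid days, and 51% and 95% between day 7 organoids and cultured kidney. Every simulated array, those of kidney too, was given the spread of the organoid replicates. A small part of the genes was changed, all of them detected on all 12 arrays. The rates therefore do not cover genes undetected in a group or kidney arrays that vary more than organoid replicates. The genes, lists and rules were chosen with earlier results of these data known. Figures used matplotlib 3.10.9 under Python 3.11.15.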

Additional observations from a re-analysis of the deposited data

Results flagged for a closer look

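The change of Nanog's first probe over 7 days differed between organoids and kidney by -1.60 on the log2 scale, in a test of the difference itself (limma, adjusted p = 0.014). Organoid replicates fell and the single pair of kidney arrays differed the other way, by 0.61. The difference was not past the threshold with the mean of Nanog's probes (-0.52, limma, adjusted p = 0.37) or with the replicate block (adjusted p = 0.062). In the same contrast all tested genes had a median of -0.04, and probes detected on no array had a median of -0.90.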

How the results depend on the processing

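With normexp (offset 50), 4 of the 7 tested pluripotency genes were called higher in day 0 organoids than in E11.5 kidney (1 in the report). So were 8013 of all 19572 genes. Those higher over both times numbered 3 (1), beside 6858 of all 19571 genes. Those lower in the difference of changes numbered 4 (1), beside 5622 of 19571. Those lower in day 7 organoids than in cultured kidney numbered 1 (0), beside 1345 of 19571. The last was also 1 with detection required on every array and with trend and robust moderation, each time Tdgf1. With the mean of all probes 0 were lower on day 0 and 0 were called either way over both times, where slide as a block also gave 0. Within slide 1, 0 were lower on day 0. Leaving out single arrays gave 0 to 1 lower on day 0, and leaving out single stages gave 0 to 2 higher in the stage trend, where quantile normalization and detection on every array gave 2 (1 in the report). Tdgf1 reversed on day 0 with the mean of all probes (0.44), and Dppa4 over both times with normexp (0.21, adjusted p = 0.014, limma). The cause of these reversals was not tested. The mean for Tdgf1 takes in probes undetected in E11.5 kidney and in organoids, so it cannot tell the sign of Tdgf1. Replicate numbers did not pair the organoids (correlations of deviations -0.15 to -0.01). With the replicate block 3 genes rose and 3 fell between days, as without it. In the difference of changes 0 were then lower, with Nanog at -1.60 (limma, adjusted p = 0.062). The block could not be fitted for the other comparisons with kidney. Over all genes, the counts called between organoid days ranged from 3892 to 5302 higher and from 6268 to 11880 lower, and in day 7 organoids against cultured kidney from 98 to 1812 higher and from 72 to 1345 lower. Signal over background limits Pou5f1, Zfp42 and Sox2, and the single kidney arrays limit every comparison with kidney.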

Other observations

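Among the genes whose levels over the 12 arrays were most like those of the other members, the following are given as descriptions, since the arrays share stage, culture and slide and 18477 genes were compared. For Nanog's first probe they were Pik3r1 (Pearson r = 0.97), Tmem229b (0.97) and Ppard (0.96), and for Tdgf1 they were Tbx22 (0.97), Gbp6 (0.96) and Cd300lf (0.95). Dppa4 was most like Grm2 (0.98) and Atp8b5 (0.97), Utf1 like Ppfia4 (0.92), Syt1 (0.90) and 2610035D17Rik (0.90), and Dppa5a like Lbx1 (0.91) and Bpifa5 (0.87). None of these is among the 10 genes.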
